A study of Mus musculus with 8 samples.

Results

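The b-gal- F4/80high cells and the EpCAM-positive cells of regenerating mouse liver were compared across all genes. Both are sorted groups of non-hepatocyte cells, each with 2 bulk RNA libraries, and membership was taken from the group label alone. These are 4 of the 8 libraries of the series, and the b-gal+ F4/80high libraries were not pooled with the b-gal- ones. All mice carried an Lgr5-LacZ transgene on a mixed C57BL/6 and CBA background, were 10 to 12 weeks old by the sample labels and 7 to 12 weeks by the series text, and received 1 injection of carbon tetrachloride (CCl4) at 1 µl/g, 6 days before the liver was taken. No uninjured or transgene-free group was analysed here, so every library shares the injury and the reporter. After perfusion with collagenase and removal of hepatocytes by slow centrifugation, the remaining cells were loaded with a fluorogenic substrate of β-galactosidase and stained with an antibody to F4/80 or to EpCAM. b-gal- F4/80high cells had a high F4/80 signal and no substrate signal, and EpCAM-positive cells bound the EpCAM antibody. Each library pools cells of 2 mice. The labels do not say whether libraries of the same replicate number came from the same mice, so p-values measure the spread between these pools.

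F4/80, encoded by Adgre1, is an adhesion receptor used to sort macrophages, and the resident macrophages of the liver are the Kupffer cells. EpCAM is an epithelial adhesion molecule that in adult liver marks the cells lining the bile ducts, the cholangiocytes. Liver sinusoids are lined by a fenestrated endothelium that clears waste with scavenger receptors, several of which macrophages also carry. CCl4 kills hepatocytes around the central veins, and monocytes from the blood enter the injured zone.

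The 4 libraries held 16948568 to 23204444 reads in named genes and detected 15455 to 16130 genes. Levels are CPM, a gene's reads scaled to a common library size after trimmed-mean (TMM) normalisation, in which 3 reads correspond to 0.0912 to 0.147 CPM. Differences are log2 values of b-gal- minus EpCAM-positive on the scale log2(CPM + 0.5), with standard errors (SE), from the limma test over 14404 genes, where a call is an adjusted p under 0.05. The EpCAM-positive replicates differed by at least 2-fold in 20.9% of the genes tested, against 6.15% for the b-gal- replicates. The reporter LacZ had 0 and 9 reads in the EpCAM-positive pair and 1 and 0 in the b-gal- pair, and Lgr5 had 7 and 0 against 1 and 1 reads, so a difference in either was not detectable at this depth.

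The comparison came with 4 marker genes, none of them a marker of Kupffer cells. Stab2 is the hyaluronan scavenger receptor of sinusoidal endothelium, Kdr the main receptor for vascular endothelial growth factor, Epcam the sorted antigen, and Jchain the chain that joins polymeric antibodies made by plasma cells. Their promoters are shown because these 4 transcripts separate the groups in opposite directions. The 250 bases before each start site are from RefSeq on GRCm38.p6, written 5′ to 3′ along the gene, with capitals for motif matches.
Stab2 (chr10:87007943-87008192, minus strand): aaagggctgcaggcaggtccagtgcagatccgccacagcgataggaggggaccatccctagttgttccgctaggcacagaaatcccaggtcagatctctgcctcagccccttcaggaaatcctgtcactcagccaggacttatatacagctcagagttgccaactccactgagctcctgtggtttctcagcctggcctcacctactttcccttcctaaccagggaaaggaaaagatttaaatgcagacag
Kdr (chr5:75978456-75978705, minus strand): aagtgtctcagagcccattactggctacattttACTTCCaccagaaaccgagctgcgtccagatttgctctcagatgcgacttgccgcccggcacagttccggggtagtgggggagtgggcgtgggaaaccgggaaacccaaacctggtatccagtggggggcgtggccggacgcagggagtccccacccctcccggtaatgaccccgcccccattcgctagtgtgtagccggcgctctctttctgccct
Epcam (chr17:87635729-87635978, plus strand): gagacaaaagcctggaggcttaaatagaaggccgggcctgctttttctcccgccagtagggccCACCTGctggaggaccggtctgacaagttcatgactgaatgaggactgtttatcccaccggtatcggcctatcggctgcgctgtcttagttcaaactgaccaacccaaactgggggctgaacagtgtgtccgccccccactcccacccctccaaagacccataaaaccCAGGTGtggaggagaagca
Jchain (chr5:88527898-88528147, minus strand): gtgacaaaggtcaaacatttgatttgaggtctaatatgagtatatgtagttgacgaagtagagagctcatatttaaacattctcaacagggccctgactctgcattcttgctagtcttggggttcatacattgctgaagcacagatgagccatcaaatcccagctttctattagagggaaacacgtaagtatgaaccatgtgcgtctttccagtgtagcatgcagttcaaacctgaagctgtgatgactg
5 motifs searched on both strands are described, and their share among 32851 promoters of the same length is given with each. The ETS family core GGAAGT was held by 19.7% of those promoters, and Kdr held it once, on the opposite strand, 217 bases before the start. The E-box motif CACCTG was held by 17.2%, and Epcam held it 187 bases before the start and, on the opposite strand, 19 bases before it. The GATA factor motif GATAAG was held by 6.55% of promoters. The octamer ATGCAAAT of lymphoid factors was held by 1.6%. The forkhead motif TGTTTAC was held by 3.17%. Stab2 and Jchain held none of the 5 in this window, and none of these motifs overlaps another in the matches found. A match describes letters and not a bound site.

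Stab2 (chromosome 10, 86841198 to 87008025, GRCm38) stood at 1513 and 1221 CPM in EpCAM-positive replicates 1 and 2 and at 3710.3 and 4187 CPM in b-gal- replicates 1 and 2. The groups did not overlap, and both EpCAM-positive libraries still held more than 1000 CPM of this endothelial transcript. The difference was 1.54 (SE 0.48, adjusted p = 0.082), which missed the threshold in limma and passed in DESeq2. Kdr (chromosome 5, 75932827 to 75978458) behaved alike in level, with 1271 and 1035 CPM against 3079 and 3421 CPM and a difference of 1.5 (SE 0.48, adjusted p = 0.088). Epcam (chromosome 17, 87635979 to 87651129) stood at 88.5 and 214 CPM in EpCAM-positive cells and at 0.845 and 1.47 CPM, or 22 and 30 reads, in b-gal- cells. Its difference of -6.41 (SE 0.50, adjusted p = 0.0158) was called, so the sorted antigen is in the RNA of the group labelled for it. Jchain (chromosome 5, 88519809 to 88527891) stood at 3782 and 1524 CPM against 18.5 and 39.4 CPM, a difference of -6.45 (SE 0.53, adjusted p = 0.0158). Jchain was thus high in both EpCAM-positive libraries and, unlike Epcam, higher in replicate 1 than in replicate 2.

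**Figure D1:**
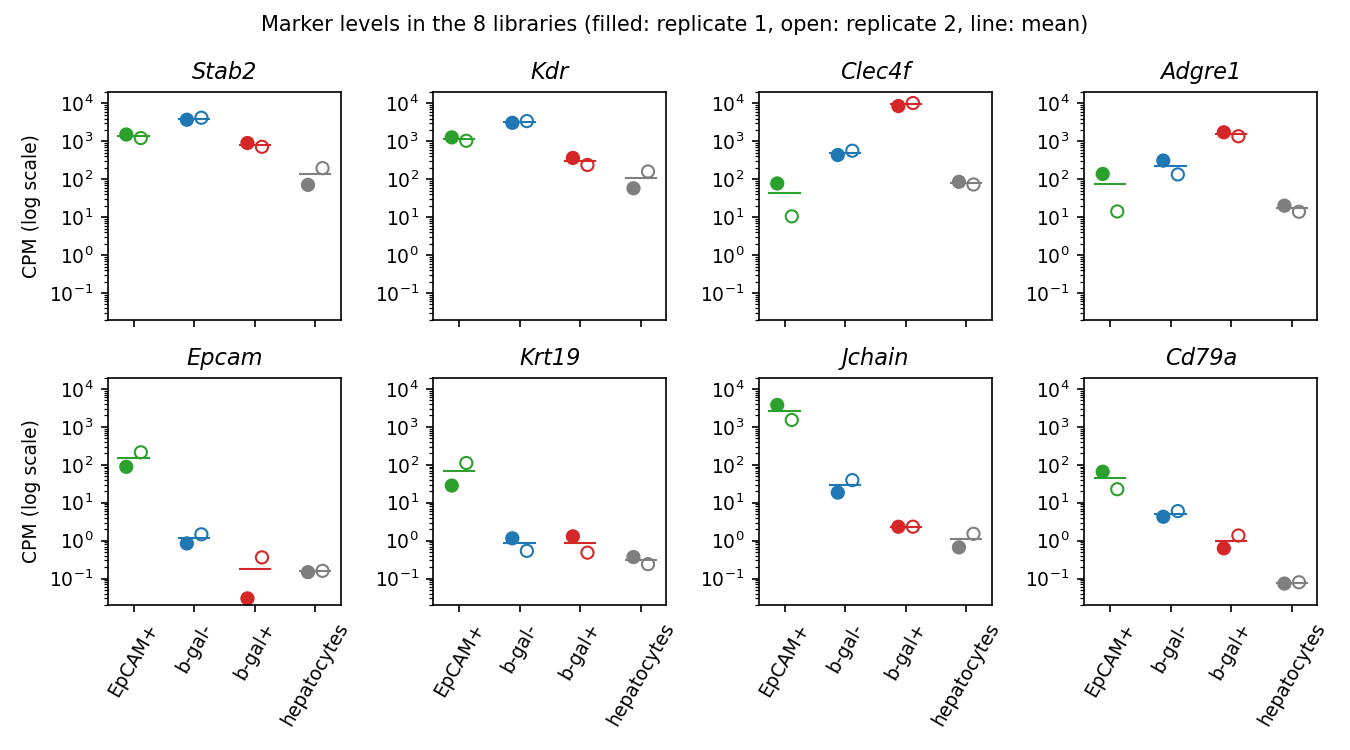
CPM on a log scale (vertical) of 8 marker genes in the 4 groups of the series (horizontal), with filled points for replicate 1, open points for replicate 2, a line for the mean and a level of 0 drawn at 0.03 CPM. Stab2 and Kdr are highest in b-gal- cells but above 1000 CPM in both EpCAM-positive libraries, while Epcam and Jchain separate the groups at 88.5 or more against 39.4 or fewer CPM.

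Levels per length compare single transcripts within each library and do not rank its cell types. In EpCAM-positive replicates 1 and 2 Stab2 had 173 and 139 CPM per kilobase of exon, Epcam 40.3 and 97.3, and the duct keratin Krt19 15.3 and 60.2. Stab2 RNA thus exceeded Epcam RNA per length in both EpCAM-positive libraries. The keratin Krt8 had 36.6 and 230 CPM per kilobase there, above Stab2 in replicate 2. Jchain had 1503 and 605 CPM per kilobase, and the secreted proteins Spp1 (osteopontin) and Clu (clusterin) had 1115 and 3449.5, and 503 and 2539. In the hepatocyte libraries Clu had 1347 and 921, Krt8 92.8 and 75.8 and Spp1 68.9 and 6.06 CPM per kilobase. Clu and Krt8 are thus not particular to duct cells. In b-gal- replicates 1 and 2 Stab2 had 424 and 478 CPM per kilobase, the Kupffer lectin Clec4f 177 and 229, and Adgre1 96.0 and 41.4. Spp1 had 766 and 47.7 there, above Stab2 in replicate 1. In the b-gal+ F4/80high libraries, for comparison, Clec4f had 3452 and 4143 and Stab2 103 and 82.0 CPM per kilobase. The b-gal- group is therefore called by its label here, since Stab2 stood above Clec4f and Adgre1 per length in both of its libraries. Other macrophage genes were not compared per length.

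Of 14404 genes tested, 811 (5.63%) were called higher and 946 (6.57%) lower in b-gal- cells. By at least 2-fold 451 were higher and 911 lower, and by at least 8-fold 6 and 399. The genes called higher had a median difference of 1.06 with a middle range of 0.83 to 1.28, and those called lower -2.74 with -3.71 to -1.97. In this fit the decreases were thus both more numerous and larger than the increases. These calls depend on the libraries of the fit: limma called 0 genes in the 4 libraries alone (3077 at an unadjusted p under 0.05), without b-gal- replicate 2 (2709) or without hepatocyte replicate 2 (4092), and without b-gal- replicate 1 it called only Sdc1 and Anpep. Every limma call below was lost in those settings, apart from Sdc1 in the last, while all 8 libraries gave 563 higher and 780 lower in edgeR and 1213 (8.42%) and 1642 (11.4%) in DESeq2. Scaling to total reads moved the median of all genes from 0.067 to -0.189 and the calls to 272 higher and 1300 lower (17.3% higher against 46.2%), and the deposited scaling moved them to -0.08 and to 371 and 1084. With a term for replicate number (the replicate block) 1150 were called higher and 1100 lower, and with a pseudocount of 1 850 and 857. Lower calls were thus not clearly the more numerous in every setting. Groups that do not overlap are common with 2 libraries each: b-gal- was above EpCAM-positive in both libraries for 32.4% of the genes tested and below for 23.3%. In bulk RNA, fewer cells of a type and less RNA per cell cannot be told apart.

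**Figure D2:**
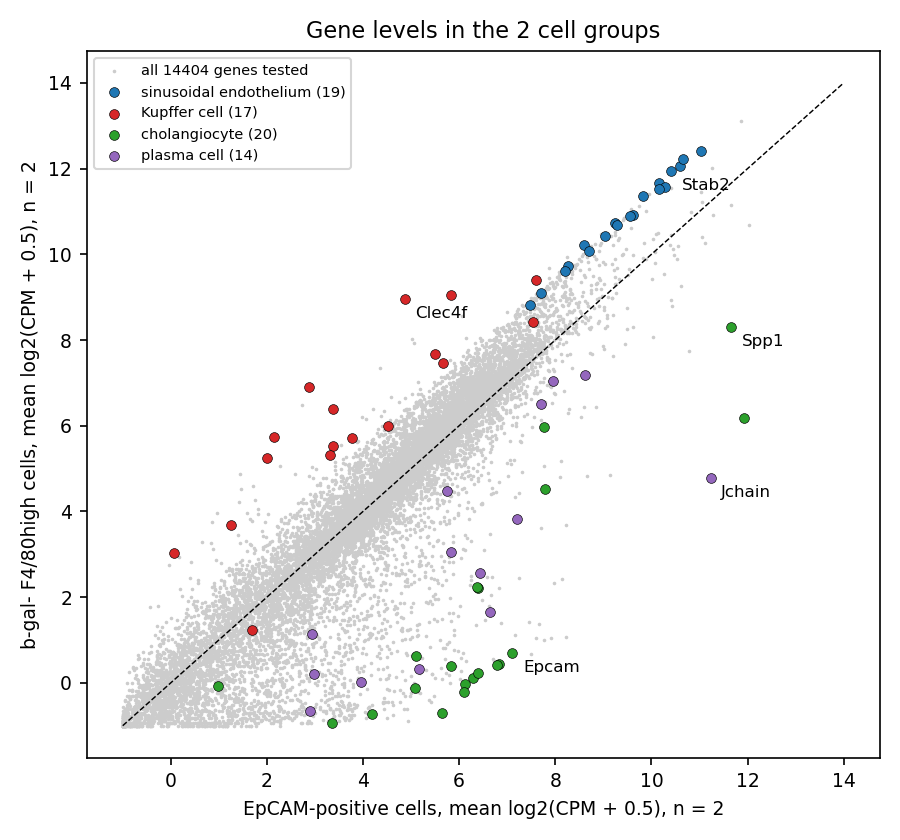
Mean log2(CPM + 0.5) of EpCAM-positive cells (horizontal, n = 2) and b-gal- F4/80high cells (vertical, n = 2) for 14404 genes, with 4 marker lists coloured and a dashed line of equality. The 19 sinusoidal genes form a band above the line with a median difference of 1.40, and the cholangiocyte and plasma cell genes lie far below it with medians of -5.33 and -3.09.

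The genes of sinusoidal endothelium stood above their EpCAM-positive levels by a nearly uniform amount. All 19 measured genes lay higher in both b-gal- libraries, with differences from 1.29 to 1.63 and a median of 1.40, against 0.07 for all genes tested. Their summed level was 17356 and 15055 CPM in EpCAM-positive and 40196 and 48063 CPM in b-gal- replicates 1 and 2, a ratio of means of 2.72. limma called 3 of the 19 higher: Ehd3, a membrane-trafficking protein of sinusoidal endothelium, the antibody-clearing receptor Fcgr2b and the transcription factor Gata4. DESeq2 called 18 of the 19, edgeR 1, and limma 0 with total reads, with the deposited scaling or without EpCAM-positive replicate 2. Gata4, which specifies the sinusoidal over the capillary fate, stood at 179 and 175 CPM against 389.7 and 515 CPM (difference 1.34, SE 0.30, adjusted p = 0.035). The spread in the fit is shared by all 4 groups, and the hepatocyte replicates differed by a median of 1.19 in these genes. Without the hepatocyte libraries, a setting chosen after seeing the data, limma called 1 of the 19. The part of the hepatocyte spread in the number of calls was not tested.

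The transcripts of endothelium in general followed the same pattern. Of 18 pan-endothelial genes 16 were called higher and 0 lower, with a median of 1.37, and all 18 lay higher in both b-gal- libraries. The calls numbered 9 with total reads or the deposited scaling and 5 without EpCAM-positive replicate 2. Cdh5 (VE-cadherin, the junction protein of endothelium) stood at 569 and 431 CPM against 1372 and 1468 CPM, a difference of 1.52 (SE 0.37, adjusted p = 0.044). Erg, an ETS-family transcription factor that maintains endothelial identity, stood at 75.1 and 68.3 against 169.7 and 222 CPM, a difference of 1.43 (SE 0.18, adjusted p = 0.0177). The adhesion molecule Pecam1 stood at 420.0 and 327 against 900.3 and 952 CPM, a difference of 1.32 (SE 0.32, adjusted p = 0.044). Of 20 endothelial transcription factors 11 were called higher and 0 lower, with a median of 1.12, against 4 higher with total reads, 5 with the deposited scaling and 4 without EpCAM-positive replicate 2. Sox17, Sox18, Tal1 and Maf were among them, with differences of 1.44, 1.41, 1.37 and 1.44. Of 19 angiogenic receptors and ligands 6 were called higher (2 with total reads or the deposited scaling) and 1 lower. Nrp1, a co-receptor for vascular endothelial growth factor, differed by 1.39 (adjusted p = 0.0189), and the lower gene was Angpt1, a ligand of the Tek receptor, at 13 and 57.1 against 1.42 and 1.61 CPM. Of 16 angiocrine factors, signals that vessels send to hepatocytes, 2 were called higher (0 with total reads or the deposited scaling) and 0 lower. Over all genes tested 5.63% were called higher and 6.57% lower. The Wnt ligand Wnt2, made by central-vein endothelium, stood at 58.3 and 107 CPM against 113 and 256 CPM, with replicate 2 above replicate 1 in both groups (difference 1.10, SE 0.63, adjusted p = 0.298).

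Among 17 tested genes of large-vessel and lymphatic endothelium 2 were called higher and 2 lower, beside 5.63% and 6.57% of all genes tested. Prox1, a transcription factor of lymphatic endothelium that hepatocytes and duct cells also express, stood at 23.9 and 142 CPM against 1.80 and 1.57 CPM, a difference of -4.76 (SE 0.72, adjusted p = 0.0181). The venous chemokine receptor Ackr1 and the thrombin receptor Thbd were called higher, by 1.31 and 1.17.

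Kupffer cell genes had the highest median difference of the 36 lists. Of 17 genes 8 were called higher (4 in edgeR, 14 without EpCAM-positive replicate 1) and 0 lower, with a median of 2.18, and 15 lay higher in both b-gal- libraries. Clec4f stood at 77.5 and 10.5 CPM in EpCAM-positive and at 436 and 566 CPM in b-gal- cells, a difference of 4.09 (SE 0.79, adjusted p = 0.025). Vsig4, a complement receptor of resident macrophages, stood at 19.2 and 2.24 against 112 and 127 CPM, a difference of 4.02 (SE 0.79, adjusted p = 0.0257). Cd163, which takes up haemoglobin, stood at 20.8 and 4.52 against 102 and 67.4 CPM, a difference of 3.01 (SE 0.66, adjusted p = 0.0341). The iron exporter Slc40a1 stood at 239 and 157 against 735 and 629 CPM, a difference of 1.81 (SE 0.32, adjusted p = 0.0219). EpCAM-positive replicate 1 lay above replicate 2 for all 17 genes, which widens the errors. Adgre1, the sorted F4/80 gene, overlapped between the groups, at 138 and 14.2 against 311 and 134 CPM, and its difference of 2.18 (SE 0.96, adjusted p = 0.184) was not called. The summed level of the 17 genes was 1124 and 449 CPM in EpCAM-positive, 3260.3 and 2731 CPM in b-gal- and 37567 and 31405 CPM in b-gal+ replicates 1 and 2. The b-gal- libraries therefore lay between the EpCAM-positive and b-gal+ libraries on Kupffer cell genes, and nearer to the EpCAM-positive ones in CPM.

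The 15 genes with the largest called increases at 20 CPM or more included 7 from the Kupffer and macrophage lists. They were, in order, Clec4f, Vsig4, Cd163, the lectin Fcna, the oxysterol receptor Nr1h3, Adgre4, the interleukin-18 inhibitor Il18bp, the antiviral enzyme Oas2, the receptor kinase Axl, complement C4b, Slc40a1, the scavenger receptor Msr1, Cyyr1, the kinase Dmpk and Mertk, a receptor kinase for the uptake of dead cells. Fcna stood at 34.6 and 11.3 against 151 and 172 CPM, a difference of 2.99. Dmpk had the smallest error of the 15, at 59.6 and 51.7 against 172 and 202 CPM (difference 1.74, SE 0.16, adjusted p = 0.0158). In the b-gal+ libraries Dmpk stood at 1414 and 1513 CPM.

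General macrophage genes were less separated than Kupffer cell genes. Of 16 only Mertk was called higher and 0 were called lower, beside 5.63% and 6.57% of all genes tested. In both b-gal- libraries 8 of the 16 lay higher, beside 32.4% of all genes tested. Mertk stood at 131 and 122 CPM against 365 and 437 CPM, a difference of 1.65 (SE 0.24, adjusted p = 0.0181). Csf1r, the receptor of macrophage colony-stimulating factor, stood at 401 and 136 against 1143 and 583 CPM, a difference of 1.81 (SE 0.54, adjusted p = 0.0742). Lyz2 (lysozyme) overlapped, at 705 and 131 against 1956 and 483 CPM. DESeq2 called 5 of the 16 and limma 9 without EpCAM-positive replicate 1.

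Monocyte transcripts were present in both groups, and replicate 1 exceeded replicate 2 in each. Of 18 genes 1 was called higher and 0 lower, with a median of 0.68, beside 5.63% and 6.57% called over all genes tested. Their summed level was 6211 and 1763 CPM in EpCAM-positive and 10326 and 1805 CPM in b-gal- replicates 1 and 2. Fn1 alone made most of each of these sums. The list summed to 21327 and 10699 CPM in hepatocyte replicates 1 and 2, so its sum is not particular to monocytes. Replicate 1 was the higher library for all 18 genes in EpCAM-positive cells and for 16 of them in b-gal- cells. Ccr2, the chemokine receptor that recruits monocytes, stood at 243 and 58.6 CPM against 378 and 103 CPM, and the groups overlapped (difference 0.72, SE 0.89, adjusted p = 0.656). Fn1 (fibronectin), which monocytes and other cells make, stood at 4254 and 1029 against 8115 and 972 CPM. Itgam (CD11b) stood at 495 and 83.2 against 725 and 107 CPM. Neither was called, with adjusted p of 0.886 and 0.86 and intervals of the difference from -2.89 to 3.74 and from -2.50 to 3.41, so that a large difference in either direction is within the error. Without EpCAM-positive replicate 2 or without b-gal- replicate 1 the signs of Ccr2, Fn1 and Itgam reversed. Fcgr4, an antibody receptor of patrolling monocytes and Kupffer cells, was the called gene, at 9.39 and 5.01 against 29.0 and 26.5 CPM. Ly6c2, the antigen of inflammatory monocytes, went the other way without overlap, at 52.6 and 15.7 against 6.95 and 4.11 CPM (difference -2.32, SE 0.63, adjusted p = 0.0592).

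Genes that endothelium and macrophages both use gave 9 called higher (4 with total reads, with the deposited scaling or in edgeR) and 0 lower of 20, with a median of 1.39 and 17 lying higher in both b-gal- libraries. 5 of the 20 are also in the sinusoidal list. Maf, a transcription factor of both lineages, stood at 443 and 384 against 1042 and 1204 CPM (difference 1.44, SE 0.18, adjusted p = 0.0177). The mannose receptor Mrc1 stood at 1012 and 802 against 2466 and 2804 CPM (difference 1.54, SE 0.42, adjusted p = 0.0588) and the scavenger receptor Stab1 at 1586 and 1505 against 3888 and 4662 CPM (difference 1.46, SE 0.48, adjusted p = 0.0952). Both are also in the sinusoidal list, so a likeness of their differences to that list carries no separate information. Of 18 scavenger receptors 5 were called higher and 0 lower. Msr1 stood at 284 and 137 against 786 and 600.2 CPM, and Scarb1, the receptor for high-density lipoprotein, differed by 1.06 (adjusted p = 0.0189). The 1 member of the shared list that lay lower in both b-gal- libraries was Cd74, the invariant chain of class II antigen presentation, at 6547 and 2648 against 1712 and 1557 CPM (difference -1.35, SE 0.64, adjusted p = 0.217).

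**Figure D3:**
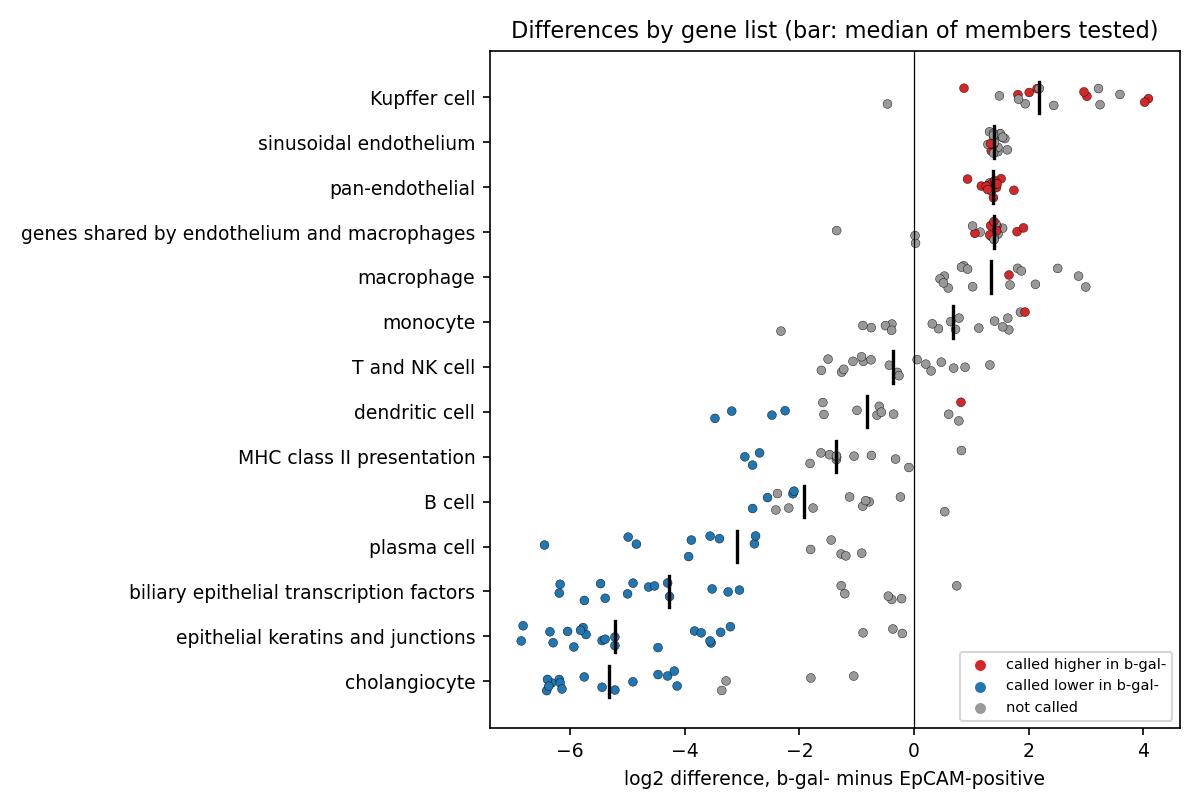
log2 difference of b-gal- minus EpCAM-positive cells (horizontal) for each tested member of 14 gene lists (vertical), coloured by limma call, with a bar at the median. Sinusoidal genes fall between 1.29 and 1.63, Kupffer cell genes spread from -0.46 to 4.09, and cholangiocyte genes reach -6.41.

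Cholangiocyte genes had the lowest median difference of the 36 lists. Of 20 genes 16 were called lower and 0 higher, with a median of -5.33, and all 20 lay lower in both b-gal- libraries. The median moved with the pseudocount, to -4.79 with 1 and -6.25 with 0.1, and was -6.88 in edgeR and -6.93 in DESeq2. The duct keratins Krt19 and Krt7 stood at 28.4 and 112 against 1.15 and 0.538 CPM, and at 19.6 and 58.1 against 1.46 and 0.734 CPM, with differences of -5.44 (SE 0.66) and -4.47 (SE 0.53) and adjusted p = 0.0172 for both. Sox9, the transcription factor of duct cells, had 987 and 5388 reads in EpCAM-positive and 5 and 24 reads in b-gal- libraries (difference -6.19, SE 0.93, adjusted p = 0.0181). The cystic fibrosis chloride channel Cftr had 351 and 776 reads in EpCAM-positive and 3 and 2 reads in b-gal- libraries. The tight junction protein Cldn4 had 638 and 3341 reads against 1 and 4. Spp1, Cd24a and Anxa4 were among the 4 genes without a call. Spp1 stood at 1837 and 5685 CPM in EpCAM-positive and at 1263 and 78.6 CPM in b-gal- replicates 1 and 2 (difference -3.35, SE 1.79, adjusted p = 0.269), and made most of the summed level of 1459 CPM in b-gal- replicate 1.

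The 15 genes with the largest called decreases at 20 CPM or more included 7 of the cholangiocyte list and 1 of the plasma cell list, Jchain. Among them, in order, were Tm4sf4, Krt18, Krt8, Scara3, Sorbs2, Jchain, Epcam, Slc5a1, Pkhd1, Cldn4, Prom1, Dsg2, Bche and Sox9. Tm4sf4, a membrane protein of the tetraspan family, stood at 131 and 674 against 0.614 and 3.47 CPM (difference -7.15, SE 0.90, adjusted p = 0.0177). Krt18 and Krt8, the keratin pair of simple epithelia, stood at 94.2 and 603 against 0.845 and 2.69 CPM, and at 71.7 and 449.6 against 0.538 and 1.96 CPM. In the hepatocyte libraries Tm4sf4 stood at 305 and 318 CPM, Krt18 at 399 and 207, and Krt8 at 182 and 148. Scara3 and Epcam stood there at 0.222 and 0.319, and at 0.148 and 0.16 CPM. The sodium-glucose transporter Slc5a1 stood at 37.4 and 338 against 0.422 and 1.47 CPM. Pkhd1, which encodes the ciliary protein fibrocystin, stood at 41.0 and 291 against 0.192 and 2.05 CPM.

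Regulators and structural genes of the bile duct followed. Of 20 biliary epithelial transcription factors 14 were called lower and 0 higher, with a median of -4.28 (-3.47 with a pseudocount of 1 and -5.38 with 0.1), and 3 of them are also in the cholangiocyte list. These factors summed to 461 and 1960 CPM in EpCAM-positive and to 1878 and 1785 CPM in hepatocyte replicates 1 and 2. Their sum is thus not particular to duct cells. The epithelial factor Elf3 had 345 and 2003 reads in EpCAM-positive and 4 and 3 reads in b-gal- libraries (difference -5.47, SE 0.85, adjusted p = 0.0184). Of 23 tested keratin and junction genes 20 were called lower and 0 higher, with a median of -5.22. That list summed to 826 and 3895.5 CPM in EpCAM-positive and to 2146.5 and 2152 CPM in hepatocyte replicates 1 and 2. Of 17 bile duct transport and cilium genes 7 were called lower and 0 higher. Aqp1, a water channel of both ducts and sinusoidal endothelium, stood at 2139.5 and 2056 CPM against 4825 and 6219 CPM and so lay on the endothelial side. Of 19 injury-associated epithelial genes 6 were called lower and 0 higher, among them the growth factor receptor Met, at 32.5 and 75 against 3.42 and 1.52 CPM. The injury list summed to 2624 and 7497 CPM in EpCAM-positive and to 2989 and 1445.5 CPM in hepatocyte replicates 1 and 2.

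Plasma cell genes were the second group that marked the EpCAM-positive libraries. Of 14 genes 9 were called lower in b-gal- cells and 0 higher, with a median of -3.09, and all 14 lay lower in both b-gal- libraries. Their summed level was 5889 and 2425 CPM in EpCAM-positive and 483 and 428 CPM in b-gal- replicates 1 and 2. Jchain made 3782 and 1524 CPM of the EpCAM-positive sums, and the list summed to 2395 and 2331 CPM in hepatocyte replicates 1 and 2. Mzb1, a chaperone of antibody assembly, stood at 196 and 50.4 against 1.88 and 3.67 CPM (difference -4.99, SE 0.71, adjusted p = 0.0181). Irf4, a transcription factor of plasma cell fate, stood at 229.6 and 95 against 11 and 16.8 CPM (difference -3.40, SE 0.45, adjusted p = 0.0179). The surface proteoglycan Sdc1, which plasma cells, epithelia and hepatocytes carry, stood at 53.1 and 60.6 against 15.7 and 3.77 CPM. Xbp1, the regulator of the secretory pathway, stood at 344 and 176 against 133 and 128 CPM and was not called (adjusted p = 0.136). Of 20 secretory pathway genes 2 were called lower and 0 higher, with a median of -0.48, beside 6.57% and 5.63% called over all genes tested.

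Lists of other antigen-presenting and lymphoid cells gave fewer calls, beside 5.63% called higher and 6.57% called lower over all genes tested. Of 14 B cell genes 4 were called lower and 0 higher, with a median of -1.93, and 11 lay lower in both b-gal- libraries. Cd79a, a chain of the B cell receptor, stood at 65.8 and 22.7 against 4.26 and 6.02 CPM (difference -2.82, SE 0.53, adjusted p = 0.0239). Pou2af1, a coactivator of B cells and plasma cells, stood at 169.7 and 43.8 against 3.99 and 7.19 CPM. Of 14 dendritic cell genes 4 were called lower and 1 higher, with a median of -0.82 that was -1.95 in replicate number 1 and -0.04 in number 2. Flt3, a growth factor receptor of dendritic cells, stood at 186 and 53.1 against 8.95 and 12.4 CPM (difference -3.18, SE 0.60, adjusted p = 0.0235). Xcr1, the receptor of cross-presenting dendritic cells, stood at 109 and 15.6 against 3.72 and 2.89 CPM. Tcf4, the gene called higher, is expressed in endothelium as well. Of 14 class II presentation genes 3 were called lower and 0 higher, namely H2-Oa, H2-Ob and H2-Eb2. The classical chain H2-Aa stood at 2494 and 979 against 663 and 562 CPM (adjusted p = 0.241). Of 18 T and NK cell genes 0 were called in limma, edgeR or DESeq2 (5 at an unadjusted p under 0.05 in limma), and their summed level was 126 and 58.7 CPM against 51.7 and 111 CPM.

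Signalling pathways held calls in both directions, beside 5.63% called higher and 6.57% called lower over all genes tested. Of 15 tested Notch genes 2 were called higher and 2 lower, with a median of 0.10 that was -0.05 under the deposited scaling. The receptor Notch1 and its vascular ligand Dll4 were higher, at 202 and 208 against 464 and 542 CPM and at 83.0 and 64.2 against 209.9 and 194 CPM. The receptor Notch2 and the ligand Jag2 were lower, at 232 and 256 against 135 and 61.8 CPM and at 13.3 and 12.2 against 2.84 and 1.86 CPM. Of 16 Hippo pathway genes 4 were called higher and 1 lower. The lower gene was Ankrd1, a target of the YAP co-activator, at 9.18 and 94.1 against 0.0384 and 0.293 CPM, and the higher genes included the co-activator Wwtr1 (TAZ) and the kinase Lats2, with differences of 0.94 and 0.90. Of 22 genes of collagens, laminins and basement membrane 0 were called higher (2 in DESeq2) and 4 lower, while their median was 0.34. In both b-gal- libraries 9 lay higher and 5 lower, against 32.4% and 23.3% of all genes tested. The mean summed level was 1.90 times that of EpCAM-positive cells. Among the genes called lower were the epithelial laminin chain Lamb3 and the collagens Col4a5 and Col18a1.

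Stress, interferon and proliferation genes differed less. Over all genes tested 5.63% were called higher and 6.57% lower, and 32.4% and 23.3% lay higher and lower in both b-gal- libraries. Of 22 immediate-early and dissociation stress genes 3 were called lower and 0 higher, with a median of -0.73 and 16 lying lower in both b-gal- libraries. Btg2, an antiproliferative early gene, stood at 732 and 842 against 325 and 304 CPM (difference -1.32, SE 0.22, adjusted p = 0.0196). The summed level of the stress list was 13740.0 and 22207 CPM in EpCAM-positive and 11200.0 and 10841 CPM in b-gal- replicates 1 and 2, and its part in the other differences was not tested. Of 20 interferon response genes 3 were called higher and 0 lower, with a median of 0.78 and 17 lying higher in both b-gal- libraries. Of 24 cell cycle genes 0 were called in limma, edgeR or DESeq2 (1 at an unadjusted p under 0.05 in limma). Mki67, the proliferation antigen, stood at 208 and 49.8 against 73.0 and 33.8 CPM, with replicate 1 above replicate 2 in both groups.

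The EpCAM-positive replicates differed in the levels of the same lists. The 20 cholangiocyte genes summed to 4392 CPM in replicate 1 and 17321 CPM in replicate 2, a ratio of 3.94, and 19 of the 20 were higher in replicate 2. Hepatocyte genes differed in the same direction, with a sum of 1073 and 5832 CPM. The cholangiocyte list also summed to 4961 and 3407 CPM in hepatocyte replicates 1 and 2, so its sum is not particular to duct cells. Albumin (Alb), the main plasma protein of hepatocytes, stood at 652 and 4703 CPM in EpCAM-positive and at 138 and 335 CPM in b-gal- replicates 1 and 2 (adjusted p = 0.102). Replicate 1 was the higher library for plasma cell genes (ratio of sums 2.43), B cell genes (3.09), class II presentation genes (2.58), dendritic cell genes (2.51), Kupffer cell genes (2.50) and monocyte genes (3.52). Sinusoidal genes differed little between the EpCAM-positive replicates, with a ratio of 1.15. Between the EpCAM-positive replicates 20.9% of all genes tested differed by at least 2-fold, counting both directions. Of the 946 genes called lower in b-gal- cells, 536 were at least 2-fold higher in EpCAM-positive replicate 2 than in replicate 1, 73 were at least 2-fold higher in replicate 1, and 337 lay within 2-fold. The genes of the second kind included Jchain, Mzb1, Pou2af1, Xcr1, Irf4 and Flt3, named here after their values were seen. The level of epithelial and of lymphoid and myeloid transcripts thus differed between the EpCAM-positive pools in opposite directions.

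**Figure D4:**
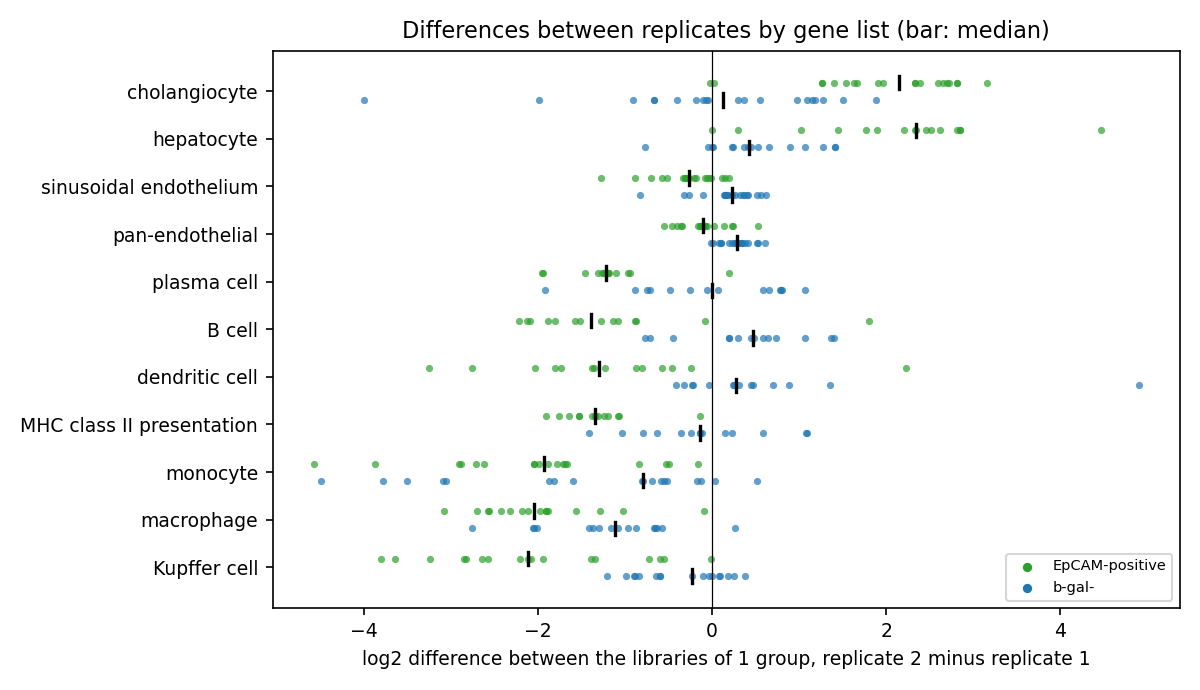
log2 difference of replicate 2 minus replicate 1 (horizontal) for each tested member of 11 gene lists (vertical), with EpCAM-positive in green, b-gal- in blue and a bar at each median. In EpCAM-positive cells cholangiocyte genes have a median of 2.14 and plasma cell genes one of -1.22, while in b-gal- cells these medians are 0.13 and 0.00.

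The b-gal- replicates also differed by list. Neutrophil, mast cell and basophil genes had a median difference of -2.94 between replicate 2 and replicate 1, with all 11 tested genes higher in replicate 1, and T and NK cell genes one of 1.14, with all 18 higher in replicate 2. Monocyte genes had a median difference of -0.80 between replicate 2 and replicate 1, macrophage genes one of -1.12, sinusoidal genes one of 0.23 and Kupffer cell genes one of -0.22. Taken by replicate number, the median difference between b-gal- and EpCAM-positive cells was 1.18 and 1.62 for sinusoidal genes in numbers 1 and 2, 1.62 and 3.20 for Kupffer cell genes, -4.29 and -6.34 for cholangiocyte genes, and -3.52 and -2.54 for plasma cell genes. Each of these 4 lists kept its direction in both numbers. T and NK cell genes did not, with medians of -1.68 and 0.60.

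The lists for other cells and vessel functions follow by their counts, beside 5.63% called higher and 6.57% called lower over all genes tested. Of 16 hepatocyte genes 0 were called higher and 2 lower, Hnf4a and the thyroid hormone carrier Ttr. Of 9 tested mesothelial genes 3 were lower, Krt18, Upk1b and Gpm6a, and their summed level was 170.4 and 778 CPM against 46.4 and 63 CPM. Krt18, which is also in the keratin list, made 94.2 and 603 CPM of the EpCAM-positive sums, and the median difference between EpCAM-positive replicates 2 and 1 over the list was -1.70, opposite in sign to that of the sums. Of 16 stellate cell and fibroblast genes, 11 tested genes of neutrophils, mast cells and basophils, and 7 tested erythroid and platelet genes, limma, edgeR and DESeq2 called 0, with 0, 1 and 1 at an unadjusted p under 0.05 in limma. Of 16 B and plasma cell transcription factors 5 were called lower and 0 higher. Of 22 vessel complement and coagulation genes 5 were called higher and 0 lower, among them the coagulation inhibitor Tfpi and the complement inhibitor Cd55, with differences of 1.41 and 1.35. Of 23 tested chemokines and receptors 1 was called higher, Cxcl13, and 1 lower, Ccr6.

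Close levels were common as well. For 6369 of the 14404 genes (44.2%) the 95% interval of the difference lay within 2-fold in either direction. Rfx5, a regulator of class II genes, was such a gene, at 42.7 and 38.6 against 36.1 and 40.2 CPM (interval -0.48 to 0.30). The common leukocyte antigen Ptprc (CD45) overlapped between the groups, at 698 and 221 against 446 and 253 CPM, with a wider interval of -1.46 to 1.01.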

How the data were processed

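RNA of 4 sorted or pelleted liver cell groups was sequenced in bulk, with 2 libraries each. Per the submitters' processing notes, HTSeq and the GRCm38.p4 (mm10) build were used; aligner, annotation and versions are not given in the sources used here. For hepatocyte replicate 1 the authors deposited counts. The other 7 files hold counts scaled by a factor of 1.08 to 1.54, a step that no source used here describes. Dividing by the smallest step gave whole reads for 100% of values within 0.01 reads. 14 rows with a number in place of a symbol (0.0514% to 0.182% of reads) were dropped. Genes passing the low-count filter of edgeR 4.0.16 were tested with limma 3.58.1 (trend, two-sided, TMM scaling, log2(CPM + 0.5), all 8 libraries, 4 residual degrees of freedom), with Benjamini-Hochberg adjustment over all genes tested; an adjusted p under 0.05 is a call. DESeq2 1.42.0 and edgeR's quasi-likelihood test were alternatives. The fits were also run on simulated data with the same spread set for every group. The EpCAM-positive replicates differed more than those of the other groups, so that run does not test the calls given here.

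Genes were named by rule: the 15 highest and 15 lowest called genes at 20 CPM or more without overlap of the groups, up to 6 called members per list at 10 CPM or more, a fixed set of check genes, and the shared genes with the highest lowest library. Other list members are named to describe their list. The members and the 36 lists were chosen with earlier results of these data known. Start and end positions are from GENCODE M21. The counting's use of strand is not given, so overlapping genes may share reads. Some genes that the rule names are not reported here.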

Additional observations from a re-analysis of the deposited data

How the results depend on the processing

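Limits: with 2 libraries a group, calls rest on a spread estimated over all 4 groups, and 3 reads correspond to about 0.0912 to 0.147 CPM, below which no difference is measurable. Genes called higher (811), lower (946), higher by at least 2-fold (451) and lower by at least 2-fold (911) fell to 0, 0, 0 and 0 in the 4 libraries alone. Without the hepatocyte libraries, chosen after seeing the data, they came to 227, 339, 161 and 336. Higher calls came to 272 (123 by at least 2-fold) with total reads and to 371 (192) with the deposited scaling, and lower calls to 1642 (1483) with DESeq2. Leaving out 1 library, with b-gal+ and hepatocyte libraries added after seeing the data, gave 0 to 1143 higher, 0 to 1839 lower, 0 to 707 and 0 to 1668 by at least 2-fold. The widest counts came without EpCAM-positive replicate 1, and 0 or 2 calls came without hepatocyte replicate 2 or either of the b-gal- libraries. A lone sample was then assumed to vary like the other groups. The cause was not tested. All 1757 calls kept their sign in every setting where the gene was tested.

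With the replicate block the counts were 1150 higher and 1100 lower, and the genes called higher numbered 14 of 17 for Kupffer cells, 6 of 16 for macrophages and 8 of 20 for interferon response (8, 1 and 3 without it). The labels do not pair the libraries; across genes, the differences between replicates 1 and 2 correlated between groups with r of 0.177 to 0.494, and 0.472 between the groups compared.

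Among named genes without a call, leaving out 1 library reversed the sign of 10: the differences ranged from -1.05 to 0.61 for Ptprc, -0.30 to 1.75 for Ccr2, -0.66 to 0.051 for LacZ, -0.37 to 0.12 for Lgr5, -0.12 to 1.79 for Ctss, -0.49 to 1.56 for Cd14, -0.92 to 1.84 for Itgam, -1.10 to 1.96 for Fn1, -1.21 to 0.45 for Plac8 and -1.22 to 1.87 for Hp.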
